A study of Mus musculus with 12 samples.

Results

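The 8 transcripts described here are those of the G1 cyclins and of the kinases they switch on: the D-type cyclins Ccnd1, Ccnd2 and Ccnd3, the E-type cyclins Ccne1 and Ccne2, and the cyclin-dependent kinases Cdk2, Cdk4 and Cdk6. They were taken by symbol from a table of 24054 genes measured by RNA sequencing in primary mouse embryonic fibroblasts (MEFs), and all 8 passed the filter on low counts. The cells carried 4 genotypes, with 3 libraries each: a double knockout labelled Blm Recql KO (Blm -/- Recql -/-, called double KO here), Blm KO (Blm -/-), Recql KO (Recql -/-) and wild type (WT). The study set each knockout against WT to ask how the RecQ-family DNA helicases BLM and RECQL1 bear on transcript levels. All were cultured in DMEM with fetal bovine serum under low oxygen, and no label names a treatment. The design of the alleles, the strain, the age and sex of the embryos and the passage of the cultures are not given in the sources used here. The labels also do not say that replicates were separate embryos or cultures, so a p-value here reflects the scatter of these 12 libraries alone. Replicates of every genotype differed beyond counting noise (chi-square per degree of freedom 25.5 to 167).

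G1 cyclins have no activity of their own and work as partners of kinases. Mitogens induce the D-type cyclins, which bind Cdk4 or Cdk6, and the complexes start to phosphorylate the retinoblastoma protein and so loosen its hold on E2F transcription factors. E2F then drives the E-type cyclins, whose partner Cdk2 completes the phosphorylation and starts DNA replication. In fibroblasts leaving quiescence, D-type cyclins come up before E-type cyclins, and the members of each family can largely stand in for each other.

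Blm transcripts stood at 5.50 ± 1.57 CPM in double KO and 4.13 ± 1.32 CPM in Blm KO, against 15.6 ± 1.14 CPM in Recql KO and 20.8 ± 1.85 CPM in WT (CPM, counts scaled to library size with TMM normalisation; SD, n = 3 each). Recql transcripts stood at 26.4 ± 8.56 CPM in double KO and 25.2 ± 4.16 CPM in Recql KO, against 22.4 ± 1.49 CPM in Blm KO and 27.7 ± 1.86 CPM in WT. Relative to WT, Recql differed by -0.07 in double KO and -0.13 in Recql KO on the log2 scale, with overlapping libraries (edgeR adjusted p = 0.928 and 0.642), so Recql KO and double KO mean here libraries so labelled. Library totals ran from 47758552 to 59296354 expected counts, at which 3 counts equal 0.0506 to 0.0628 CPM, so that depth limited none of the 8 transcripts. On the first principal component, which held 47.3% of the variance, the libraries labelled Recql KO lay at 74.1 to 79.7 and the other 9 at -54.4 to -7.02. Sex-linked transcripts also differed between libraries: 4 Y-linked genes summed to over 100 CPM in all WT libraries but only in double KO replicate 2, Blm KO replicate 1 and Recql KO replicate 1, and Recql KO replicate 2 held both Y-linked transcripts (28.7 CPM) and Xist (310 CPM).

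The marker genes of fibroblasts summed to 40620 to 47740 CPM in double KO, 45400 to 49610 in Blm KO, 21150 to 26030 in Recql KO and 31730 to 34080 in WT, with none of the 10 markers at 0. Those of cartilage cells, 6 genes including Col2a1, summed to 303 to 968 CPM in double KO, 709 to 974 in Blm KO, 82.2 to 98.3 in Recql KO and 594 to 1406 in WT. The 7 neural markers, among them Nes and Tubb3, summed to 91.0 to 180 CPM in double KO, 49.7 to 76.9 in Blm KO, 216 to 236 in Recql KO and 70.2 to 117 in WT. Nearly all of that sum was Nes (mean 168 CPM in Recql KO and 68.2 in WT) and Tubb3 (54.1 and 25.1). In Recql KO and in WT, 4 of the 7 were under 1 CPM in every library, and of these Gfap was lower in Recql KO (0.0718 CPM) than in WT (0.285). Lists for endothelial cells (8 genes, up to 21.0 CPM), macrophages and blood (8 genes, up to 11.3 CPM) and epithelium (7 genes, up to 50.5 CPM) were low in every library. The endothelial marker Cldn5 was at 0 in all 12 libraries, Tie1 in the Blm KO libraries, and the epithelial Krt14 and the muscle gene Myog in the Recql KO libraries. Under each other label Tie1 totalled at most 2 counts and Myog at most 21, and neither passed the filter on low counts. Skeletal muscle markers, 6 genes, reached 150 CPM in double KO replicate 2 and stood between 8.56 and 61.8 CPM in the other 11 libraries. In double KO replicate 2 the sum was nearly all Des (149.7 CPM). In such bulk libraries fewer cells of a type and less RNA per cell cannot be told apart.

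Close relatives can share reads, and the stretches of identical letters bear on how far that could go. They set no bound, since the read length is not given and other transcripts of these genes were not compared. Shown are the longest runs that the longest coding transcripts of each close pair have in common in the mm10 annotation (GENCODE M21), all of them in coding sequence, with capitals marking the shared bases.
Ccnd1 and Ccnd2: TTCAAGTGCGTGCAGAAGGA
Ccne1 and Ccne2: AAACTTGAGGAAATCTAC
Cdk4 and Cdk6: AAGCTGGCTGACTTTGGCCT
The runs were 20, 18 and 20 bases long, and identity over the aligned coding sequences was 66.7%, 58.9% and 63.9%. Among the other D-type pairs the longest run was 17 bases for Ccnd1 and Ccnd3 and 14 bases for Ccnd2 and Ccnd3. RSEM gives a fraction of a count where a read could come from several genes. The deposited counts of Ccnd1, Ccne1, Cdk2, Cdk4 and Cdk6 were whole numbers in all 12 libraries, to within 0.005. Those of Ccnd2 were whole in 4 libraries and those of Ccnd3 and Ccne2 in 1 library each.

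In mm10 the members are spread over several chromosomes. Ccnd1 is at chr7:144929931-144939925 on the minus strand, 64.4 Mb from Blm, and Ccne1 at chr7:38097984-38107534, also on the minus strand, 42.4 Mb from Blm. Ccnd2 is at chr6:127125162-127152193 on the minus strand, 15.2 Mb from Recql. The other 5 share no chromosome with either targeted gene: Ccnd3 (chr17:47505051-47599691), Ccne2 (chr4:11191351-11204779), Cdk4 (chr10:127063534-127067920) and Cdk6 (chr5:3341485-3531008) are on the plus strand and Cdk2 (chr10:128697939-128705031) on the minus strand. Genes on the opposite strand overlap all of them except Ccne1. They include Oraov1 at the end of Ccnd1 (479 to 821 counts), Bysl at Ccnd3 (1280 to 2086 counts), Ints8 at Ccne2 (3817 to 5370 counts) and Tspan31 at Cdk4 (6569 to 8297 counts). Each covers only part of the member. The strand setting of the counting is not given, so for Ccnd2, Ccnd3 and Ccne2 reads from the member and from its antisense neighbour cannot be told apart. At Ccnd2 the counted neighbour, 9330179D12Rik, was given 5 to 28 counts, against 66743 to 111823 for Ccnd2. The whole counts of Ccnd1, Cdk2 and Cdk4 held no fraction divided with a neighbour. The antisense neighbours of Cdk6 are not among the genes counted, so its whole counts could not show such a division.

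Cdk4 and Cdk6, the kinases that answer to the same D-type cyclins, are the pair that differed from WT in opposite directions, as given below. A promoter window of each is shown for that reason. Both are RefSeq windows on GRCm38.p6, plus strand, of the 250 bases before an annotated start, chr10:127063285-127063534 for Cdk4 and chr5:3343643-3343892 for Cdk6. The Cdk4 window ends at the start of Cdk4 as placed above. The Cdk6 window lies inside Cdk6 as placed above (chr5:3341485-3531008), so the windows are not like regions of the 2 genes. Capitals mark CACGTG, the E-box bound by MYC.
Cdk4: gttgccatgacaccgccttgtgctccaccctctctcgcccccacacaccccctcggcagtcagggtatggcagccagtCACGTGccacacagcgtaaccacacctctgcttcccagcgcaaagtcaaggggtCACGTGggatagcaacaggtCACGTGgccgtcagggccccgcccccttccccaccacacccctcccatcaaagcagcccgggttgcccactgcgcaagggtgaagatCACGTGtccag
Cdk6: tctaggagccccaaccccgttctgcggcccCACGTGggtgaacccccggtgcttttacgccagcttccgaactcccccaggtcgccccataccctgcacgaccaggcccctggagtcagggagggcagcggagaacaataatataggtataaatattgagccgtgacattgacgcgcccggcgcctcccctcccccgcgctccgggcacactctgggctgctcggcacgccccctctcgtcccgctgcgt
The Cdk4 window held 4 E-boxes, whose first bases lay 172, 118, 98 and 11 bases before the start, and the Cdk6 window held 1, at 220 bases. Windows of 300 bases, from 250 before to 50 after a start, were searched on both strands in 32851 RefSeq promoters. At least 1 E-box stood in 7.15% of them and at least 4 in 8 promoters (0.0244%). The cut of 4 is the count found for Cdk4 itself, so that share is no test. Windows were matched for 5 of the 8 members, and Cdk2, Ccne1 and Ccnd3 held no E-box. The AP-1 motif TGANTCA (7.81% of promoters) and the cyclic AMP response element TGACGTCA (1.79%) were in none of the 5. An E2F motif, spelled TTTGGCGC, TTTCCCGC, TTTCGCGC or TTTGCCGC (2.26% of promoters), was found for Cdk2 alone. These are matches of letters and no binding was measured.

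Levels of different genes were compared per kilobase of the longest coding transcript. In double KO the order of mean CPM per kilobase ran Ccnd2 (270), Cdk4 (103), Ccnd1 (60.3), Ccnd3 (58.3), Ccne1 (15.3), Cdk2 (11.3), Ccne2 (8.50) and Cdk6 (1.33). The order in Blm KO was the same, with Ccnd2 at 240 and Cdk6 at 1.02 CPM per kilobase. In Recql KO it was Ccnd2 (298), Ccnd1 (129), Cdk4 (86.6), Ccnd3 (56.5), Ccne1 (23.7), Ccne2 (13.7), Cdk2 (9.61) and Cdk6 (2.23), with no overlap between the libraries of any neighbours. The WT order was that of double KO: Ccnd2 (223), Cdk4 (109), Ccnd1 (61.8), Ccnd3 (54.7), Ccne1 (13.4), Cdk2 (10.9), Ccne2 (9.31) and Cdk6 (1.28). By this length Ccnd1 overlapped Ccnd3, and Ccne1 overlapped Cdk2, in double KO, Blm KO and WT, so these neighbours did not differ beyond their spread there. Cdk2 overlapped Ccne2 in double KO and WT but not in Blm KO. Cyclin D2 was therefore the leading G1 cyclin transcript under every label, and Cdk6 the scarcest of the kinases. With the union of all annotated exons as the length, Ccne2 ranked above Cdk2 under every label and Ccne1 above Ccnd3 in Recql KO. Ccnd1 was then above Ccnd3 without overlap under every label, at 47.9 against 14.0 CPM per kilobase in double KO and 49.0 against 13.2 in WT.

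**Figure D1:**
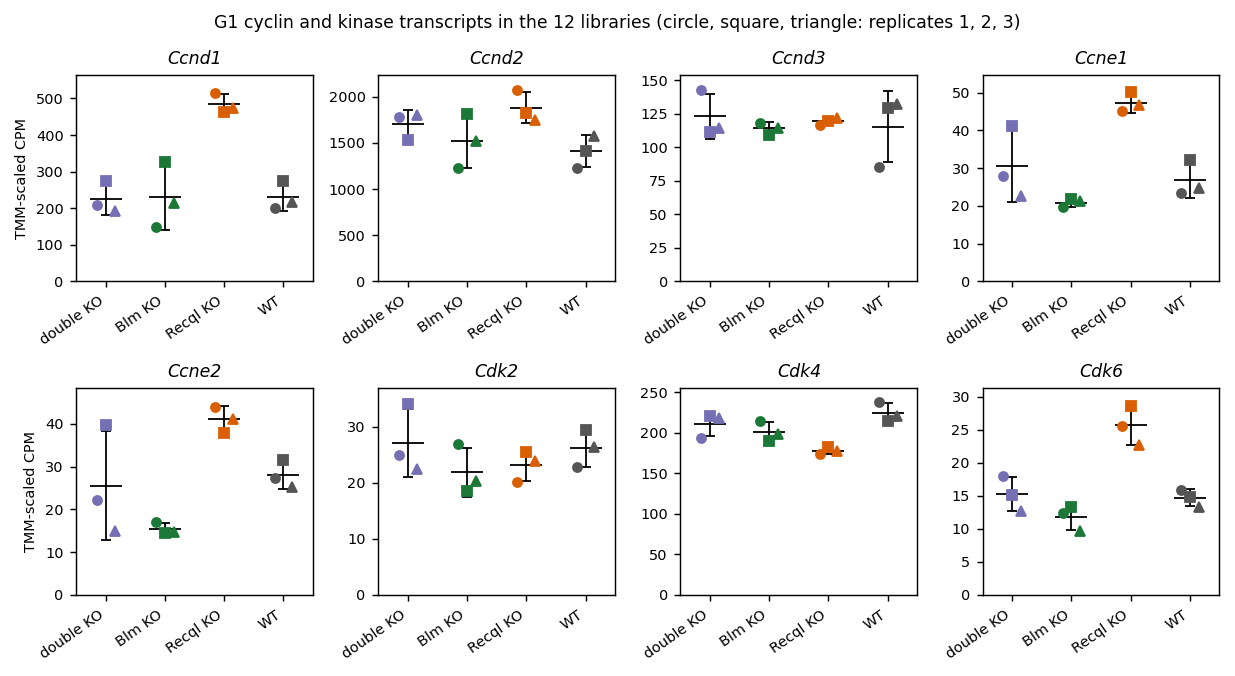
TMM-scaled CPM (y axis, from 0) of each of the 8 transcripts in the 12 libraries, by genotype label (x axis). Circles, squares and triangles are replicates 1, 2 and 3, and bars give the mean and SD of 3 libraries. For Ccnd1, Ccne1 and Cdk6 all Recql KO points lie above every other point, and for Cdk4 they lie below every other point.

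Ccnd1 encodes cyclin D1, the D-type cyclin most closely tied to mitogen signalling in fibroblasts. In the order of replicates 1, 2 and 3, its level was 209, 275 and 192.5 CPM in double KO, 148, 327 and 214 CPM in Blm KO, 514, 463 and 473 CPM in Recql KO, and 200, 275 and 217.5 CPM in WT. The 3 Recql KO libraries stood above all 9 others, while the other labels overlapped. Ccnd1 rose 2.09-fold in Recql KO relative to WT (1.07 ± 0.25 SE on the log2 scale, edgeR adjusted p = 0.0103). It was 2.14-fold lower in double KO than in Recql KO (-1.10 ± 0.25 SE, edgeR adjusted p = 0.0103). Against WT the differences were -0.03 in double KO (95% interval -0.58 to 0.51) and -0.01 in Blm KO (-0.55 to 0.54), on the log2 scale. Blm KO was the most variable label for Ccnd1, with replicate 2 at 327 and replicate 1 at 148 CPM, both outside the range of WT.

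Ccnd2 encodes cyclin D2, the most abundant of the 8 transcripts. It stood at 1785, 1533 and 1800 CPM in double KO, 1231, 1815 and 1517 CPM in Blm KO, 2072, 1828 and 1751 CPM in Recql KO, and 1234, 1417 and 1577 CPM in WT. Each Recql KO library was above each WT library, and the other labels overlapped WT. The difference between Recql KO and WT did not pass the test (log2 fold change 0.42 ± 0.15 SE, edgeR adjusted p = 0.0533). It passed with relative log expression scaling (adjusted p = 0.0463), with a filter of 1 CPM in 3 libraries (0.0432), in a fit on these groups alone (0.0294) and with DESeq2 (0.0203), at log2 values of 0.42 to 0.43.

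Ccnd3 encodes cyclin D3, the D-type cyclin best known from lymphocytes and differentiating cells. Its level was 143, 112 and 115 CPM in double KO, 119, 109 and 115 CPM in Blm KO, 117, 120 and 122 CPM in Recql KO, and 85.2, 129 and 132 CPM in WT. All 4 labels overlapped. The log2 differences from WT were 0.09 in double KO (95% interval -0.24 to 0.42), -0.02 in Blm KO (-0.35 to 0.31) and 0.05 in Recql KO (-0.28 to 0.38).

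Ccne1 encodes cyclin E1, the activator of Cdk2 at the start of S phase and a target of E2F. Its level was 27.8, 41.1 and 22.7 CPM in double KO, 19.6, 21.8 and 21.3 CPM in Blm KO, 45.1, 50.2 and 46.7 CPM in Recql KO, and 23.4, 32.0 and 24.9 CPM in WT. The Recql KO libraries were above all others and the Blm KO libraries below all WT libraries. Ccne1 rose 1.77-fold in Recql KO relative to WT (log2 fold change 0.82 ± 0.19 SE, edgeR adjusted p = 0.00954). In double KO it was 1.55-fold lower than in Recql KO (-0.63 ± 0.19 SE, edgeR adjusted p = 0.0335). That difference between double KO and Recql KO no longer passed without any of 5 of the 6 libraries (adjusted p = 0.0633 without Recql KO replicate 1, 0.0968 without replicate 2 and 0.0692 without replicate 3; 0.0888 without double KO replicate 1 and 0.0923 without replicate 3), nor in the fit on these groups alone (0.076). The size of that difference also depended on which libraries were kept. It shrank from -0.63 to -0.14 on the log2 scale when the fit held just the Y-high libraries. These are the libraries whose Y-linked genes summed to over 100 CPM, with 1 library each for double KO and Recql KO. The Blm KO value for Ccne1 against WT did not pass (-0.36 ± 0.19 SE, edgeR adjusted p = 0.33).

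Ccne2, which encodes the paralog cyclin E2, stood at 22.2, 39.7 and 14.9 CPM in double KO, 17.1, 14.6 and 14.7 CPM in Blm KO, 44.1, 37.9 and 41.2 CPM in Recql KO, and 27.4, 31.5 and 25.1 CPM in WT. Recql KO libraries were above WT libraries and Blm KO libraries below them, without overlap, but neither difference passed. The log2 fold change against WT was 0.55 ± 0.27 SE in Recql KO (edgeR adjusted p = 0.149) and -0.86 ± 0.27 SE in Blm KO (edgeR adjusted p = 0.146). In fits on the groups compared alone both passed (adjusted p = 0.00914 for Recql KO and 0.0395 for Blm KO), and DESeq2 called the Blm KO difference only (0.0397; 0.11 for Recql KO). The double KO libraries spanned the range of the WT libraries, with replicate 2 above and the other 2 below it. Without that library, Ccne2 was lower in double KO than in Recql KO (-1.15, edgeR adjusted p = 0.00217, against -0.68 and 0.0916 with it).

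Cdk4 encodes the main partner kinase of the D-type cyclins in many cell types. Its level was 194, 221 and 218 CPM in double KO, 214, 190 and 198 CPM in Blm KO, 174, 182 and 177 CPM in Recql KO, and 238, 215 and 221 CPM in WT. The Recql KO libraries were the 3 lowest of the 12, and those of Blm KO also lay below all WT libraries. Cdk4 fell 1.26-fold in Recql KO relative to WT (log2 fold change -0.34 ± 0.08 SE, edgeR adjusted p = 0.00824). It was 1.19-fold higher in double KO than in Recql KO (0.25 ± 0.08 SE, edgeR adjusted p = 0.0362). The call against Recql KO was lost without any of 5 of the 6 libraries, double KO replicate 1 being the exception (adjusted p = 0.0856 to 0.116), and also with replicate number as a block (0.0504), without the filter on low counts (0.0603) and in the fit on these groups alone (0.0614). Of the 4 members called, Cdk4 had the smallest fold change and the smallest SE in both comparisons.

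Cdk6, the other partner kinase of the D-type cyclins, was at 17.98, 15.2 and 12.7 CPM in double KO, 12.4, 13.4 and 9.63 CPM in Blm KO, 25.7, 28.6 and 22.7 CPM in Recql KO, and 16.0, 14.9 and 13.4 CPM in WT. Again the Recql KO libraries were above all 9 others, and the other labels overlapped. Cdk6 rose 1.74-fold in Recql KO relative to WT (0.80 ± 0.16 SE on the log2 scale, edgeR adjusted p = 0.00442) and was 1.68-fold lower in double KO than in Recql KO (-0.75 ± 0.16 SE, edgeR adjusted p = 0.00701). Cdk6 and Cdk4 thus differed from WT in opposite directions in the same libraries.

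Cdk2, the kinase of the E-type cyclins, stood at 25.01, 34.0 and 22.4 CPM in double KO, 26.9, 18.5 and 20.3 CPM in Blm KO, 20.1, 25.5 and 23.9 CPM in Recql KO, and 22.8, 29.3 and 26.4 CPM in WT. All labels overlapped, and no comparison passed. The log2 difference from WT was 0.05 in double KO (95% interval -0.35 to 0.46), -0.26 in Blm KO (-0.66 to 0.14) and -0.18 in Recql KO (-0.58 to 0.22). While its cyclin partner Ccne1 rose in Recql KO, the interval for Cdk2 there reached up to 0.22 on the log2 scale.

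**Figure D2:**
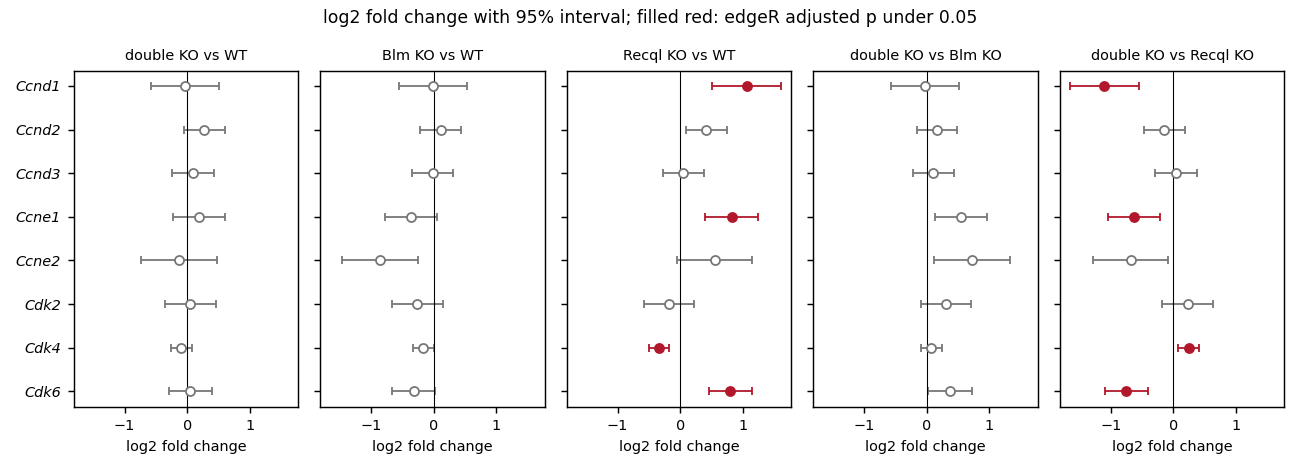
Log2 fold change (x axis) with its 95% interval for each member (rows) in 5 comparisons (panels), from the fit to all 12 libraries. Filled red points have an edgeR adjusted p under 0.05: Ccnd1, Ccne1, Cdk6 and Cdk4 in Recql KO against WT, and the same 4 with the opposite sign in double KO against Recql KO.

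Counted over the comparisons, members were called where the Recql KO libraries entered, and in no other comparison. In double KO against WT 0 of 8 were called, with 0.121% of the 14876 tested genes called and 0 members but 1605 genes at an unadjusted p under 0.05. No member was free of overlap between these labels, against 14.1% of all genes. In Blm KO against WT 0 of 8 were called (0.753% of all genes), 1 member, Ccne2, and 2806 genes had an unadjusted p under 0.05, and DESeq2 called 1 member. Ccne1, Ccne2 and Cdk4 were lower without overlap, 3 of 8, against 12.1% of all genes lower in that way. The members' median log2 fold change was 0.05 in double KO and -0.21 in Blm KO, where over all genes it was 0.0068 and 0.005.

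In Recql KO against WT 4 of 8 members were called, against 29.9% of all genes. Ccnd1, Ccne1 and Cdk6 were higher (14.2% of all genes) and Cdk4 was lower (15.6%). Groups did not overlap for 6 of 8 members, against 49.3% of all genes, which is the level against which the members' share is to be read. Their median log2 fold change was 0.49, against -0.01 over all genes. All 4 calls held whichever library was left out, Recql KO replicate 2 included (adjusted p = 0.0282 for Ccnd1, 0.0358 for Ccne1, 0.0218 for Cdk6 and 0.0289 for Cdk4). When the fit kept just the 6 Y-high libraries, of which 1 is Recql KO and is assumed to vary like the others, the log2 values were 1.15 for Ccnd1, 0.75 for Ccne1, 0.80 for Cdk6 and -0.37 for Cdk4, and Ccnd1 alone passed (adjusted p = 0.0265, 0.0829, 0.0507 and 0.158 in that order). The summed cartilage, neural and fibroblast markers differed under the Recql KO label as given above, the neural sum being nearly all Nes and Tubb3. Of the 10 fibroblast markers, Col1a1, Col1a2 and Col3a1 fell in Recql KO relative to WT, Dcn rose (213 CPM in Recql KO, against 50.5 CPM in WT), and the other 6 were not called. The part of these markers in the members' differences was not tested.

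In double KO against Recql KO 4 of 8 members were called (24.7% of all genes), Ccnd1, Ccne1 and Cdk6 lower (11.6%) and Cdk4 higher (13.2%), and the libraries of these 4 did not overlap, against 43.6% of all genes. These are the 4 members called in Recql KO against WT, with the opposite sign, and both comparisons share the Recql KO libraries. Set against Blm KO, double KO had 0 of 8 members called (1.96% of all genes), with 3 members and 3466 genes at an unadjusted p under 0.05. Ccne1 was the only member whose libraries did not overlap there, higher in double KO (0.55 ± 0.19 SE on the log2 scale, edgeR adjusted p = 0.134), as were 12% of all genes. Without double KO replicate 3, the library lowest in both E-type cyclins in that group, Ccne1 (0.72, edgeR adjusted p = 0.049) and Ccne2 (0.99, edgeR adjusted p = 0.0372) passed.

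Whether the Recql KO label went with the same change in cells labelled Blm KO was tested as an interaction, the difference of double KO over Blm KO minus that of Recql KO over WT. It was called for 1 of 8 members (10.4% of all genes, and 5.86% with a positive value). For Cdk4 it was 0.41 ± 0.11 SE on the log2 scale (edgeR adjusted p = 0.0367), from 0.07 in double KO over Blm KO and -0.34 in Recql KO over WT. Ccnd1 had the larger value, -1.09 ± 0.35 SE, and did not pass (edgeR adjusted p = 0.0703), although it did with DESeq2 (0.018), with replicate number as a block (0.0405) and without Blm KO replicate 1 (0.0162). The Ccnd1 value did not pass under the other 5 of 7 alternatives or without any of the other 11 libraries. With only the Y-high libraries it shrank to -0.28. The Cdk4 call was kept without double KO replicate 1 or Blm KO replicate 1 and lost without any of the other 10 libraries (adjusted p = 0.0549 to 0.0977), with a covariate for Y-linked transcripts (0.0896), with the block (0.0511) and without the filter on low counts (0.0593). Values for Ccne1 (-0.27, 95% interval -0.86 to 0.31) and Cdk6 (-0.43, -0.92 to 0.06) did not pass.

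The make-up of the families was compared as shares per kilobase within a library. Ccnd1 made up 15.6% ± 3.73 of the D-type cyclin transcripts in double KO, 16.8% ± 3.47 in Blm KO, 26.8% ± 0.61 in Recql KO, against 18.3% ± 2.41 in WT (SD, n = 3 each). The Recql KO share was 8.50 points above WT without overlap (exact permutation test over samples, two-sided p = 0.1, the smallest that 3 against 3 libraries can give; Benjamini-Hochberg adjusted p = 0.25 over 25 such tests). The difference of double KO from Recql KO was -11.1 points, again without overlap (exact permutation p = 0.1, adjusted 0.25). Ccnd2 was the majority D-type cyclin under every label, with 69.4% in double KO, 67.5% in Blm KO, 61.5% in Recql KO, against 65.8% in WT.

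Among the E-type cyclins the share of Ccne2 was 34.7% ± 4.41 in double KO, 33.0% ± 3.23 in Blm KO, 36.6% ± 3.01 in Recql KO, against 41.2% ± 2.28 in WT. Each knockout label lay below WT without overlap, with differences of -6.50, -8.17 and -4.57 points in that order (exact permutation p = 0.1 each, adjusted 0.25). All 3 comparisons share the WT libraries, and the gaps were narrow for 2 of them. The lowest WT share was 39.5%, against highest shares of 39.1% in double KO, 36.7% in Blm KO and 39.4% in Recql KO. Cdk6 made up 1.29% ± 0.31 of the Cdk4 and Cdk6 transcripts per kilobase in double KO, 1.04% ± 0.19 in Blm KO, 2.51% ± 0.25 in Recql KO, against 1.15% ± 0.08 in WT. Cdk4 thus supplied nearly all transcripts of the D-cyclin kinases under every label. The Cdk6 share was higher in Recql KO than in WT by 1.35 points without overlap (exact permutation p = 0.1, adjusted 0.25), and its size hangs on the long Cdk6 transcript, since as a share of counts it was 12.6% in Recql KO and 6.15% in WT.

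**Figure D3:**
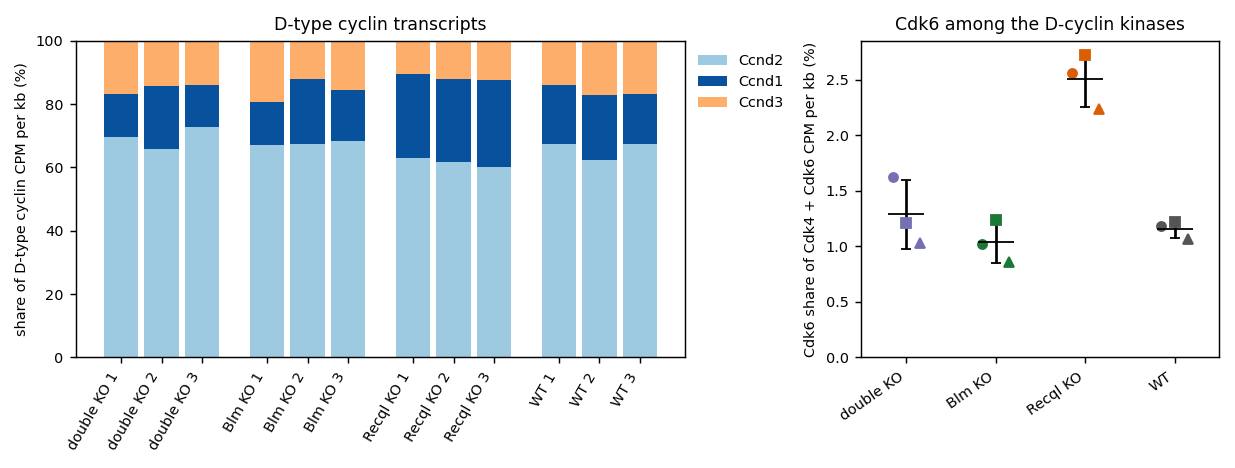
Left, share of each D-type cyclin in the sum of the 3, in CPM per kilobase (y axis, %), as 1 stacked bar per library. Right, Cdk6 as a share of Cdk4 plus Cdk6 in CPM per kilobase (y axis, %), with points for libraries and bars for mean and SD of 3. The Ccnd1 band is widest in the 3 Recql KO bars, which average 26.8%, and the Cdk6 share is highest there, at 2.51%.

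Inhibitors of the cyclin-kinase complexes moved in both directions in Recql KO against WT: of 7 genes, 3 rose and 3 fell, where 14.2% of all genes were called higher and 15.6% lower. Cdkn1b, whose product p27 holds cyclin E and Cdk2 inactive, was at 45.0, 46.3 and 48.2 CPM in double KO, 70.3, 61.9 and 65.2 CPM in Blm KO, 18.5, 19.5 and 23.8 CPM in Recql KO, against 73.0, 58.5 and 59.8 in WT. It was the lowest in the Recql KO libraries and fell relative to WT (log2 fold change -1.63 ± 0.11 SE, edgeR adjusted p = 9.15e-05). Cdkn2c, which encodes the Cdk4 and Cdk6 inhibitor p18, fell as well (-1.14, edgeR adjusted p = 0.00106), as did Cdkn1c, which encodes p57 (-2.60, edgeR adjusted p = 0.00279). Cdkn1a, which encodes p21, was at 481, 374 and 524 CPM in double KO, 328, 449 and 437.5 CPM in Blm KO, 708, 617 and 608.5 CPM in Recql KO, against 301, 347 and 362.5 in WT, and rose in Recql KO relative to WT (0.94, edgeR adjusted p = 0.00174). In double KO against Recql KO 3 inhibitor genes were higher (13.2% of all genes) and 2 lower (11.6%). Against WT 0 of 7 were called in double KO and 0 in Blm KO. The list's median was -0.57 in Recql KO, against -0.01 over all genes.

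Of the 13 pocket protein and E2F genes, which the cyclin-kinase complexes act on, 2 rose and 1 fell in Recql KO against WT, a smaller share than the 29.9% called among all genes. E2f1 rose (log2 fold change 0.48, edgeR adjusted p = 0.00331), as did E2f3 (0.25, edgeR adjusted p = 0.0152, and 0.0531 without Recql KO replicate 2). E2f4, a repressing member, fell (-0.28, edgeR adjusted p = 0.0396), a call kept without WT replicate 1 and lost without any of the other 5 libraries (up to 0.133). Rb1, the retinoblastoma gene, was at 52.0 ± 10.7 CPM in double KO, 51.6 ± 8.13 in Blm KO, 58.6 ± 6.44 in Recql KO, against 54.0 ± 5.89 in WT, and was called in no comparison. Among 14 genes that activate the complexes or turn them over, 1 rose and 4 fell, a share near that 29.9%. Cks1b, a small subunit that binds the kinases and helps degrade p27, fell (-0.44, edgeR adjusted p = 0.0152), and so did Mnat1 (-0.33, edgeR adjusted p = 0.0163), a subunit of the kinase that activates Cdk2 and Cdk4. Ambra1, whose product targets D-type cyclins for degradation, fell by 0.21 (edgeR adjusted p = 0.0343), and Fbxw7, which does so for cyclin E1, rose (0.26, edgeR adjusted p = 0.0379). The call for Cks1b was lost without Recql KO replicate 1 or WT replicate 2 (adjusted p up to 0.0625), and that for Mnat1 without Recql KO replicate 2 or 3 or WT replicate 1 (up to 0.0647). Ambra1 kept it only without WT replicate 1 and Fbxw7 only without Recql KO replicate 3 (up to 0.138 and 0.127 without the others).

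Cyclins of later phases were lower in Recql KO than in WT, where Ccnd1 and Ccne1 were higher. Of 5 genes, the 4 cyclins fell (15.6% of all genes) and Cdk1 was not called. The call for Ccnf, the weakest (-0.65, edgeR adjusted p = 0.0487), was lost under 6 of 8 alternatives (up to 0.131) and without Recql KO replicate 1 or 2 or WT replicate 2 or 3 (up to 0.163). Ccna2, the S and G2 phase cyclin, was at 101, 158 and 77.2 CPM in double KO, 93.4, 71.9 and 75.3 CPM in Blm KO, 51.5, 59.2 and 69.1 CPM in Recql KO, against 135.5, 151 and 120 in WT (log2 fold change of Recql KO over WT -1.18, edgeR adjusted p = 0.00448). In the same contrast Ccnb2 (-1.14) and Ccnb1 (-1.07), the mitotic cyclins, fell at edgeR adjusted p = 0.00248 and 0.00486. Of 18 mitosis genes 12 fell and 0 rose, with a median of -0.76, among them Cdc20 (-1.16, edgeR adjusted p = 0.00173) and Plk1 (-1.07, edgeR adjusted p = 0.00489). Of 25 E2F-driven DNA replication genes, Rfc4 (-0.68, edgeR adjusted p = 0.00707) and Tk1 (-0.88, edgeR adjusted p = 0.025) fell, 0 rose, and the median was 0.05. The Tk1 call was lost without Recql KO replicate 1 or 2 or WT replicate 2 or 3 (adjusted p up to 0.0887). In Blm KO against WT no gene of any list was called, with values below 0 for 25 of 25 replication genes (median -0.61), 18 of 18 mitosis genes (-0.73) and 5 of 5 later-phase genes (-0.72). The corresponding medians of double KO against WT were -0.14, -0.25 and -0.23, again with 0 called. The interaction was called for 14 of 18 mitosis genes and 3 of 5 later-phase genes, all above 0, and for 1 of 25 replication genes. Over all genes it was called above 0 for 5.86%, a share that the replication genes did not exceed.

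**Figure D4:**
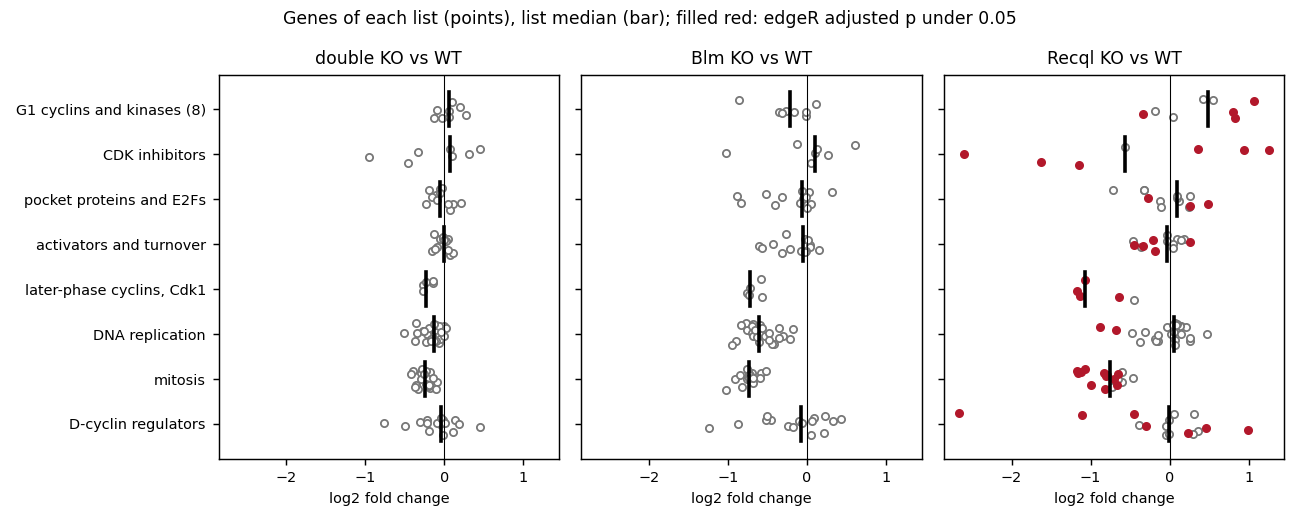
Log2 fold change against WT (x axis) of the genes in each list (rows) for double KO, Blm KO and Recql KO (panels). Points are genes, vertical bars list medians, and filled red points have an edgeR adjusted p under 0.05. Red points appear only in the Recql KO panel, where the later-phase and mitosis lists have medians of -1.07 and -0.76 and the G1 members a median of 0.49.

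The 16 regulators of D-type cyclin transcription, factors downstream of mitogens, split in Recql KO against WT, with 3 higher and 4 lower, against 14.2% and 15.6% of all genes. Fosl1, an AP-1 subunit, was at 14.5, 27.4 and 13.6 CPM in double KO, 16.9, 18.6 and 16 CPM in Blm KO, 62.4, 63.4 and 62.0 CPM in Recql KO, against 43.8, 31.1 and 19.4 in WT. It rose in Recql KO relative to WT (log2 fold change 0.99, edgeR adjusted p = 0.0291), whereas Fos, another AP-1 subunit, fell (-1.11, edgeR adjusted p = 0.00681). The Fosl1 call was kept without WT replicate 1, the highest of the WT libraries, and lost without any of the other 5 libraries (adjusted p up to 0.0806). The list's median was -0.01, the same as over all genes. Myc, whose protein binds the E-box shown above, was at 53.4 ± 11.7 CPM in double KO, 39.6 ± 3.09 in Blm KO, 69.6 ± 5.94 in Recql KO, against 54.1 ± 13.7 in WT, and did not pass in Recql KO against WT (0.36, edgeR adjusted p = 0.177). Against Recql KO, double KO had 3 of the 16 higher and 4 lower, where 13.2% and 11.6% of all genes were so called. Fosl1 was among the lower (-1.76, edgeR adjusted p = 0.00296).

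Within double KO, Ccnd1, the E-type cyclins, Cdk2 and the proliferation lists shared an order of libraries. Replicate 2 was highest, replicate 1 next and replicate 3 lowest for Ccne1, Ccne2 and Cdk2, and also for Ccnd1. The same order held for the summed replication genes (1037, 1449 and 846 CPM in replicates 1, 2 and 3), mitosis genes (1580, 2322 and 1192 CPM) and later-phase genes (285, 416 and 222 CPM). Replicate 2 is also the double KO library high in Y-linked transcripts and in the summed muscle markers (150 CPM, against 58.4 and 54.2 CPM in replicates 1 and 3). That sum was nearly all Des (57.6, 149.7 and 53.8 CPM in replicates 1, 2 and 3). The other 5 muscle markers were under 1 CPM in every double KO library. How far any of these set the spread of the E-type cyclins was not tested. Ccnd2, Ccnd3, Cdk4 and Cdk6 did not share that order.

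The genes whose levels followed each called member most closely over the 12 libraries were looked up among 12023 genes, by Pearson correlation of log2 CPM. For Ccnd1 they included Slc4a7 (r = 0.97) and Smim15 (0.959). For Ccne1 they were Mis12 (0.981), Eef1e1 (0.979) and Abcg1 (0.975), and for Cdk6 they were Nufip2 (0.968), Bmp2k (0.965) and Il6ra (0.963). Cdk4 was followed by Hnrnpa1 (0.947), Aldh18a1 (0.945) and Lsm5 (0.942). All 12 points come from 4 labels, and the Recql KO libraries stand apart for each of these members.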

How the data were processed

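Polyadenylated RNA of 12 primary MEF samples was sequenced from KAPA stranded libraries, per the labels' protocols. Per the submitters' processing notes, reads were handled with Bowtie2 2.1.0, RSEM 1.2.15 and mouse build mm10. What the authors deposited is a single gene table of RSEM expected counts, and between 17.4% and 20.2% of a library's values had a fractional part. The annotation used, strand setting and read length are not given in the sources used here. Counts were rounded and tested in R 4.3.3 with edgeR 4.0.16 (filterByExpr by genotype, 14876 genes kept; TMM factors 0.96 to 1.03; robust quasi-likelihood F test on all 12 libraries with 1 mean per genotype; biological coefficient of variation 0.209). P-values were Benjamini-Hochberg adjusted over all genes tested and called under 0.05. The procedure was tested on simulated data with up to 200 changed genes, each changed by more on the log2 scale than any member here. That test does not show how well smaller changes are called. Levels are TMM-scaled CPM, SE is that of the fitted log2 fold change, and 95% intervals use the t distribution of the fit. Lengths and positions come from GENCODE M21. Alternatives were relative log expression scaling, other filters, DESeq2 1.42.0, fits on 2 groups, the replicate number as a block, Y-linked level as a covariate, Y-high libraries only and leaving out each library. Exon-union lengths were added after seeing the data.

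Members and gene lists were chosen with earlier results of these data known. The text names all members, Blm and Recql, up to 4 called genes of a list with the smallest adjusted p, and the 3 closest genes of each called member, except 1 gene that is not reported here. Rb1 and Myc are named outside that rule and were picked after their values were seen.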

Additional observations from a re-analysis of the deposited data

Results flagged for a closer look

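The interaction for Cdk4, 0.41 on the log2 scale, passed the test of the difference itself: the difference of double KO over Blm KO (0.07) was higher than that of Recql KO over WT (-0.34), so the Recql KO label went with a lower Cdk4 level in the libraries not labelled Blm KO and not in those so labelled. By edgeR the adjusted p was 0.0367, with group means of 211 CPM in double KO, 201 CPM in Blm KO, 178 CPM in Recql KO and 225 CPM in WT (n = 3 each). It was kept when either double KO replicate 1 or Blm KO replicate 1 was left out, and lost for each of the other 10 libraries (0.0549 to 0.0977). It was also lost without the filter on low counts (0.0593), with the replicate block (0.0511), with the Y-linked covariate (0.0896) and with only the Y-high libraries (0.476).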

How the results depend on the processing

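Of the 9 calls made for members, 6 held whichever library was left out, and Ccnd1 in Recql KO against WT held under all alternatives run; no called value changed sign. The number of members called was 1 in Blm KO against WT in the fit on 2 groups and with DESeq2 (Ccne2 each time). For Recql KO against WT it was 1 with only the Y-high libraries, 6 in the fit on 2 groups and 5 with relative log expression scaling, the 1 CPM filter and DESeq2. The Y-high libraries hold 1 library of each knockout label, so their spread comes from WT alone and each lone library is assumed to vary like WT. In double KO against Recql KO it was 0 with only the Y-high libraries, 2 in the fit on 2 groups, and 2 to 4 when a library was left out. Double KO against Blm KO had 0 to 2 when a library was left out. For the interaction it was 0 without a filter, with the Y-linked covariate and with only the Y-high libraries, 2 with DESeq2, and 0 to 2 when a library was left out.

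Calls over all genes, in the order Recql KO against WT, double KO against Recql KO, interaction, double KO against Blm KO, Blm KO against WT and double KO against WT, were 4444, 3681, 1554, 291, 112 and 18. DESeq2 made 5187, 4456, 2602, 1402, 931 and 337. The Y-linked covariate gave 3510, 3672, 820, 301, 43 and 43, and the Y-high libraries alone 1128, 373, 5, 0, 2 and 3. Fits on 2 groups, which cannot hold the interaction, gave 4599, 3153, 8, 140 and 0 for the other comparisons in that order. Leaving out a library gave 2692 to 3715, 2157 to 3519, 549 to 1836, 9 to 585, 31 to 114 and 8 to 28.

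The labels do not say whether same-numbered libraries were paired. Correlations of same-numbered deviations ran from -0.168 to 0.227 and 5 of 18 exceeded 0.1, the highest for double KO with WT (0.227 for replicate 2 and 0.212 for replicate 3). These values do not settle whether the numbers pair the libraries. With replicate number as a block the all-gene calls were 4689, 3893, 1615, 762, 120 and 50, the Cdk4 calls in double KO against Recql KO (0.25, adjusted p = 0.0504) and in the interaction (0.41, 0.0511) were lost, the Ccnd1 interaction was called (-1.09, 0.0405), and the Ccnd1 value in double KO against Blm KO was 0.0056.

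All other reversals were of values not called. With only the Y-high libraries, log2 values in Blm KO against WT were -0.19 for Ccnd2, 0.0465 for Ccnd3 and 0.0445 for Cdk2. Double KO against WT gave 0.24 for Ccnd1, -0.0563 for Ccnd3 and 0.49 for Ccne2, and against Blm KO 0.87 for Ccnd1 and -0.10 for Ccnd3. In double KO against Recql KO the value for Ccnd3 was -0.0697, and the interactions were -0.12 for Ccnd3 and 0.30 for Ccne1. With the Y-linked covariate Ccne2 was 0.0481 in double KO against WT and -0.14 in the interaction, and Ccnd1 was 0.0094 in double KO against Blm KO. When a library was left out, Blm KO against WT ranged from -0.35 to 0.22 for Ccnd1, -0.0361 to 0.24 for Ccnd2 and -0.19 to 0.10 for Ccnd3, and Recql KO against WT from -0.13 to 0.16 for Ccnd3. Double KO against WT ranged from -0.20 to 0.11 for Ccnd1, -0.0866 to 0.20 for Ccnd3, -0.0816 to 0.36 for Ccne1, -0.60 to 0.14 for Ccne2, -0.14 to 0.17 for Cdk2 and -0.0844 to 0.17 for Cdk6. Double KO against Blm KO ranged from -0.26 to 0.32 for Ccnd1 and -0.0149 to 0.17 for Ccnd3, double KO against Recql KO from -0.0809 to 0.11 for Ccnd3, and the interaction from -0.0648 to 0.23 for Ccnd3 and -0.29 to 0.44 for Ccne2. The cause was not tested. Of 25 share differences, 7 moved by more than the spread between libraries on counts without length and 5 with exon-union length, and 0 reversed.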
